A study of Mus musculus with 18 samples.

Results

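The collagen chain genes are the genes that encode the alpha chains of collagen. They were taken here as all genes of the count table with a mouse symbol of the form Col, number, a, number, and a summed count of at least 20 over the 18 libraries. Of 44 genes with such a symbol, 41 met the count minimum, out of 30583 genes in the table. Col10a1, with 14 counts, lay just outside the minimum and Col6a4, with 30, just inside it, and Col19a1 (6 counts) and Col9a1 (4 counts) were also left out. By the kind of assembly their chains form, 11 members belong to the fibrillar class, 7 to the fibril-associated class (FACIT), 6 to the basement membrane class (type IV), 6 to the beaded filament class (type VI), 2 to the multiplexins, 2 to the network class (type VIII), 1 to the anchoring fibril class (type VII), 4 to the transmembrane class and 2 to none of these.

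RNA was measured by poly(A)-selected sequencing in left ventricular tissue of 12-week-old male C57BL/6JR mice, with 1 library per mouse. In 5 groups of 3 mice the left anterior descending coronary artery was tied under pentobarbital anaesthesia, a model of myocardial infarction, and tissue of the infarcted region was taken after 10 min or 1 h in the early groups and after 6 h, 24 h or 72 h in the later ones. In the sham group of 3 mice (0 h) the suture was passed without being tied, so these mice also had the operation and the anaesthesia. No transgene, drug or other genotype is named for any group, and the sham mice stand at a single time, so the time since surgery and the time since ligation cannot be told apart.

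Collagens are triple helices of 3 alpha chains, which may be alike or come from different genes. Cells make them as procollagens that are hydroxylated and folded in the endoplasmic reticulum, exported in large carriers, trimmed outside the cell and cross-linked. In the heart, fibroblasts make most of the fibrillar types I and III, which carry tensile load between the muscle cells, while type IV forms the sheet-like basement membrane around muscle cells and capillaries. After an infarction, fibrillar collagen builds the scar that replaces the lost muscle.

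Libraries held 18.2 to 25.1 M (mega) counts, and levels are given as CPM (counts per M counts) scaled by TMM, a scaling that assumes most genes did not change. The labels name cardiomyocytes as the cell type and describe no separation of cells. In the sham libraries the summed level of 5 cardiomyocyte markers was 51816 CPM, of 5 endothelial markers 1159 CPM and of 6 fibroblast markers 2089 CPM, so these are libraries of mixed tissue. Mitochondrially encoded genes took 22.3 to 27.4% of counts in the sham, 10 min, 1 h and 6 h libraries, 17.7 to 24.0% at 24 h and 8.41 to 10.5% at 72 h. The first 6 h library stood apart in the atrial muscle genes Myl7 (827, 1 and 0 counts in the 3 libraries) and Sln (715, 0 and 0 counts). Of the atrial markers, 2 of 3 tested were called higher at 6 h, and 0 without that library, so the calls at 6 h are given with and without it.

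The collagen share of all counts was highest at 72 h. Members together took 0.145 ± 0.0228% of counts in sham libraries (mean ± SD, n = 3 here and below), 0.206 ± 0.0112% at 10 min, 0.134 ± 0.0119% at 1 h, 0.192 ± 0.0295% at 6 h, 0.301 ± 0.0586% at 24 h and 2.36 ± 0.420% at 72 h. The 3 libraries at 72 h lay between 2.02 and 2.83%, above the highest library of any other group (0.349%, at 24 h). In whole tissue, fewer cells of a type and less RNA per cell cannot be told apart, and the same holds for more cells and more RNA per cell.

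The class that made up most of the collagen RNA differed between the times. Counts were divided by gene length (counts per kb) before genes were compared with each other, using the length of all annotated exons together, which for some genes exceeds that of the main transcript. Basement membrane genes held 50.5 ± 1.23% of collagen counts per kb in sham libraries, 76.1 ± 2.38% at 6 h, 54.4 ± 8.38% at 24 h and 12.2 ± 1.11% at 72 h. Fibrillar genes held 22.1 ± 1.01%, 9.97 ± 1.43%, 26.3 ± 5.69% and 71.8 ± 2.04% at the same times. At 6 h every library was above every sham library in the basement membrane share and below every sham library in the fibrillar share, and at 72 h the order was turned around. The beaded filament share was 15.4 ± 0.120% in sham libraries, 6.54 ± 0.221% at 6 h, 8.19 ± 1.66% at 24 h and 6.61 ± 0.962% at 72 h. The 10 min and 1 h groups were close to sham in all 3 shares, with basement membrane means of 51.4% and 50.0%.

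**Figure D1:**
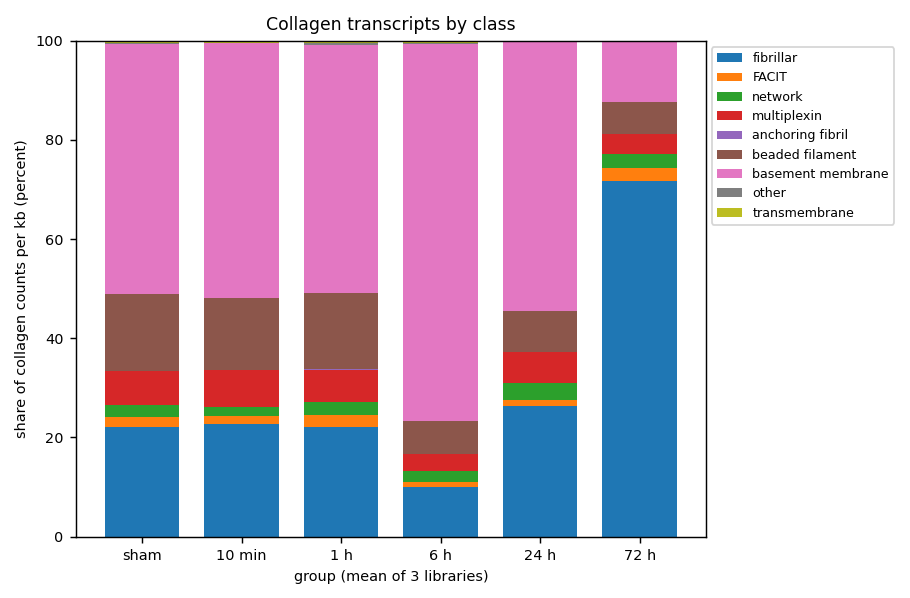
Share of collagen counts per kb (percent, vertical axis) held by each class in the 6 groups, as the mean of 3 libraries. Basement membrane genes hold 76.1% at 6 h, and fibrillar genes hold 71.8% at 72 h.

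The order of single genes changed in the same way. In sham libraries the highest levels per kb were those of Col4a2 (51.1 ± 5.77 CPM per kb) and Col4a1 (50.4 ± 7.72), which did not differ beyond their spread, followed by Col6a1 (19.1 ± 2.90) and Col3a1 (13.8 ± 2.97). At 72 h the highest were Col1a1 (541 ± 106 CPM per kb) and Col3a1 (516 ± 69.7), again within their spread of each other, followed by Col1a2 (239 ± 44.5) and Col4a1 (135 ± 34.4). These levels per kb describe the libraries, and no test was run on shares or ranks.

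Single members were tested in a fit across all 16311 genes that passed the filter on low counts. Of the 41 members 37 passed it, and Col2a1, Col6a4, Col17a1 and Col25a1 did not. A further 4 of the 37 (Col6a5, Col9a2, Col11a1 and Col24a1) passed only through the 72 h libraries, so that a rise there was a condition of their being tested. A gene was called at an edgeR adjusted p under 0.05, and all fold changes, and the amounts by which a gene is said to have risen or fallen, are on the log2 scale. In the test of any difference from sham at any time, 35 of 37 members were called, beside 78.4% of all genes tested, and the exceptions were Col9a3 and Col11a2. Of these 35 members, 25 had their largest change at 72 h (among them the 4 tested through the 72 h libraries), 7 at 24 h and 3 at 6 h.

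No member was called at 10 min or at 1 h against sham. All genes tested gave few calls at these times, 0.0736% at 10 min and 0.294% at 1 h. At 6 h, 14 of 37 members were called, 4 higher and 10 lower, beside 28.4% of all genes tested (16.3% higher and 12.2% lower). Without the first 6 h library the members called were 2 higher and 9 lower, beside 10.3% and 7.18% of all genes. Col3a1 (-0.94), Col5a1 (-1.19), Col14a1 (-1.19), Col6a1 (-0.84), Col6a2 (-0.99) and Col6a6 (-1.86) were then still called lower, and Col4a1 and Col4a2 higher. Col12a1, Col28a1 (0.98), Col1a2 (-0.66) and Col4a5 were then not called, and Col15a1 was called lower. At 24 h, 22 of 37 were called, 15 higher and 7 lower, beside 43.8% of all genes (23.7% higher and 20.2% lower). At 72 h, 31 of 37 were called, 27 higher and 4 lower, beside 66.4% of all genes (34.2% higher and 32.2% lower). Among the 33 members that did not need the 72 h libraries to be tested, 23 were higher and 4 lower at 72 h. The median log2 fold change of the 37 members against sham was 0.23 at 10 min, 0.08 at 1 h, -0.34 at 6 h, -0.05 at 24 h and 2.35 at 72 h, while that of all genes tested lay between -0.01 and 0.03.

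These comparisons share the 3 sham libraries, so the columns of values are not independent of each other. With scaling by library size in place of TMM, all genes had a median log2 change of -0.12 at 6 h, 0.20 at 24 h and 0.61 at 72 h, in place of -0.01, 0.01 and 0.03. With that scaling the members at 72 h were 30 higher and 0 lower, beside 58.1% of all genes called higher and 14.6% called lower, so the 4 lower calls at 72 h hold only relative to the other genes. It also turned the members' median at 24 h from -0.05 to 0.15, which is below the median of all genes with either scaling. That order did not hold for the 33 members that did not need the 72 h libraries to be tested. Their median at 24 h with TMM was 0.302, above that of all genes (0.01).

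**Figure D2:**
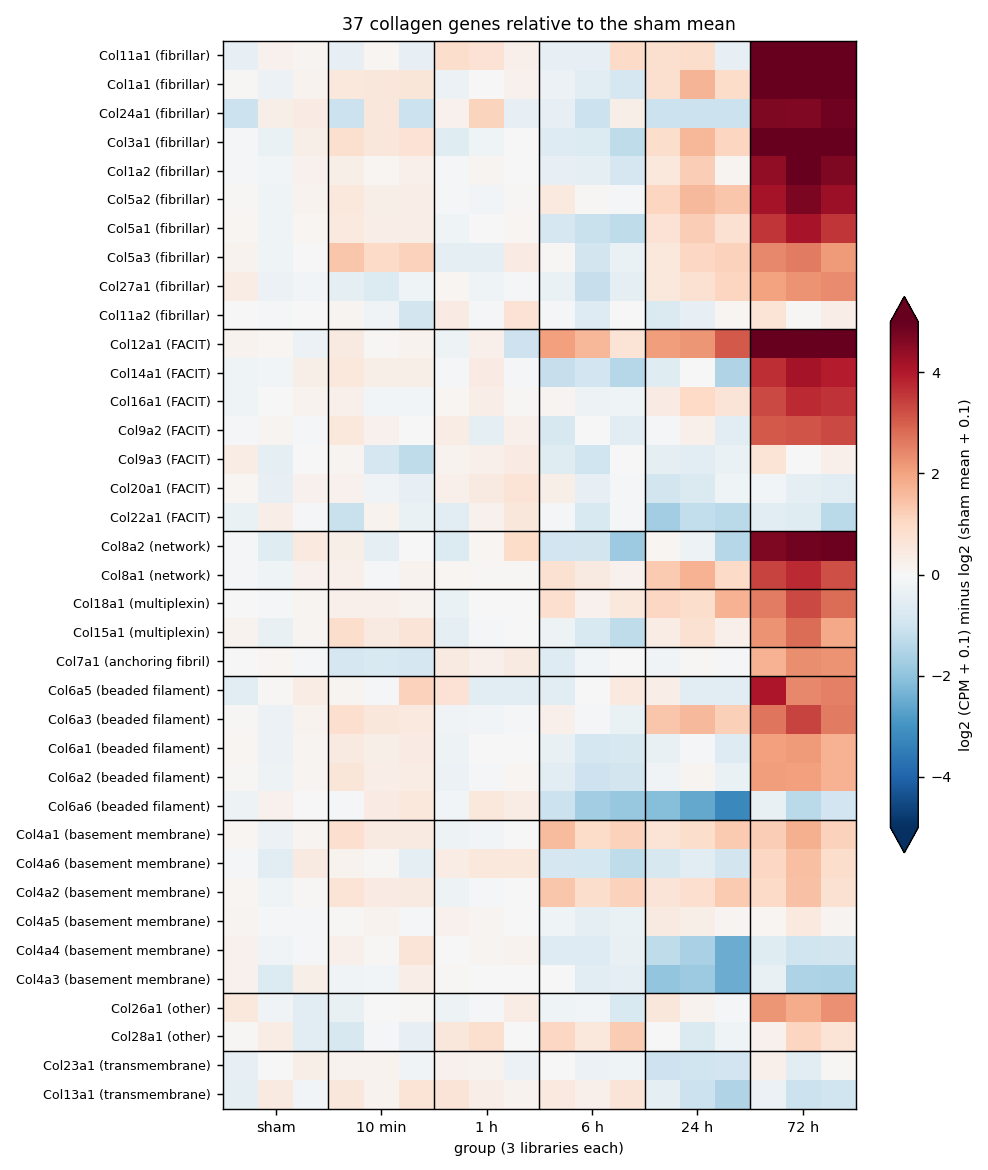
Log2 level of the 37 tested collagen genes in each of the 18 libraries, as log2 (CPM + 0.1) minus log2 (sham mean + 0.1), with colours capped at 5. Rows are grouped by class and ordered by the fold change at 72 h, and most fibrillar rows are pale or blue at 6 h and dark red at 72 h.

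Nearly all fibrillar genes rose by 72 h. Of 10 tested, 4 fell and 0 rose at 6 h, 7 rose and 0 fell at 24 h, and 9 rose and 0 fell at 72 h, with median log2 fold changes of -0.56, 0.92 and 4.56. The shares called, 40.0, 70.0 and 90.0%, stand beside 28.4%, 43.8% and 66.4% of all genes at the 3 times. Col11a1 and Col24a1, which were tested only through the 72 h libraries, are among the 9, and the other 8 had 7 higher and a median of 4.10 at 72 h. At 6 h 3 fell when the first 6 h library was left out. Type I collagen, the main fibril of the scar, consists of the chains of Col1a1 (chr11:94936224-94953042, GRCm38) and Col1a2 (chr6:4504814-4541544). Col1a1 stood at 78.3, 59.9 and 84.9 CPM in the sham libraries, 107, 109.8 and 112 at 10 min, 61.3, 75.7 and 87.4 at 1 h, 60.7, 49.7 and 42.0 at 6 h, 128, 239.7 and 139 at 24 h and 3066, 4349 and 3233 at 72 h. The 6 h and sham libraries overlapped, all 24 h libraries lay above all sham libraries, and the 72 h libraries were more than 10 times higher than any other. Its log2 fold change was 1.18 (SE 0.22, edgeR adjusted p = 0.000437) at 24 h and 5.58 (SE 0.26, edgeR adjusted p = 1.72e-11) at 72 h, and at 6 h it was -0.55 with an edgeR adjusted p of 0.0697.

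Col1a2, the second chain of type I, had smaller increases. It stood at 105, 103 and 133 CPM in sham libraries, 140.2, 123 and 134 at 10 min, 107, 125 and 113 at 1 h, 84.3, 80.5 and 63.3 at 6 h, 163, 268 and 125 at 24 h and 2485, 3573 and 2854 at 72 h. All 6 h libraries were below and all 72 h libraries above the sham libraries, while the 24 h libraries overlapped with sham. The log2 fold change was -0.58 (SE 0.21, edgeR adjusted p = 0.0497) at 6 h, 0.71 (SE 0.21, edgeR adjusted p = 0.012) at 24 h and 4.71 (SE 0.24, edgeR adjusted p = 5.81e-11) at 72 h. The 6 h call lay at the threshold and was lost in 16 alternative fits, and the 24 h call was lost without the second 24 h library, without the second sham library and in the fit to the 6 libraries compared.

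The balance of the type I chains was farthest toward Col1a1 at 72 h. The ratio of Col1a1 to Col1a2 in counts per kb was 1.41, 1.1 and 1.21 in the sham libraries, 1.44, 1.69 and 1.58 at 10 min, 1.08, 1.15 and 1.47 at 1 h, 1.36, 1.17 and 1.26 at 6 h, 1.49, 1.69 and 2.11 at 24 h and 2.34, 2.30 and 2.14 at 72 h. Every library at 10 min, 24 h and 72 h was above every sham library, while the 1 h and 6 h libraries overlapped with sham. The level of the ratio itself depends on the gene lengths: without them the sham mean was 0.656 and the 72 h mean 1.19.

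Col3a1 (chr1:45311538-45349706) encodes the only chain of type III collagen, which forms fibrils together with type I and is plentiful in young scar tissue. It stood at 131, 108 and 166 CPM in the sham libraries, 235, 202 and 221 at 10 min, 88.2, 116 and 136 at 1 h, 86.7, 84.2 and 56.8 at 6 h, 252, 429 and 285 at 24 h and 4451, 5803 and 4945 at 72 h. The 6 h libraries were all below and the 24 h and 72 h libraries all above the sham libraries. The log2 fold change was -0.83 (SE 0.22, edgeR adjusted p = 0.00822) at 6 h, 1.25 (SE 0.22, edgeR adjusted p = 0.00024) at 24 h and 5.23 (SE 0.25, edgeR adjusted p = 2.1e-11) at 72 h. The ratio of Col3a1 to Col1a1 per kb averaged 1.21 ± 0.0939 in sham libraries, 1.34 ± 0.125 at 10 min, 1.01 ± 0.0429 at 1 h, 0.997 ± 0.120 at 6 h, 1.29 ± 0.0902 at 24 h and 0.962 ± 0.0657 at 72 h. All 1 h libraries (0.961 to 1.04) and all 72 h libraries (0.892 to 1.02) were below all sham libraries (1.12 to 1.31), and the other groups overlapped with sham.

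Type V collagen sits inside type I fibrils and limits their width, and its chains differed in their calls at 6 h. Col5a1 (chr2:27886425-28039514) stood at 54.5, 43.8 and 55.4 CPM in sham libraries, 71.9, 63.8 and 64.6 at 10 min, 44.2, 50.9 and 54.3 at 1 h, 28.3, 23.9 and 21.1 at 6 h, 84.2, 119 and 86.1 at 24 h and 615, 885 and 614 at 72 h. It had the largest called fall of the fibrillar class at 6 h, -1.07 (SE 0.17, edgeR adjusted p = 0.000163), with no overlap between libraries, and rose by 0.91 at 24 h and 3.78 at 72 h. Col5a2 (chr1:45374321-45503282) stood at 30.5, 25.4 and 33.1 CPM in sham libraries, 43.0, 36.7 and 37.5 at 10 min, 27.4, 27.1 and 30.6 at 1 h, 42.2, 31.3 and 27.4 at 6 h, 62.8, 90.6 and 77.8 at 24 h and 538, 785 and 581 at 72 h. It was not called at 6 h (0.18, edgeR adjusted p = 0.468) and rose by 1.38 at 24 h and 4.42 at 72 h. The ratio of Col5a1 to Col5a2 per kb lay between 1.89 and 2.02 in the sham libraries, 0.758 and 0.869 at 6 h, 1.25 and 1.52 at 24 h and 1.19 and 1.29 at 72 h. The 6 h libraries were thus lowest of all, with no overlap with any other group.

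Col5a3, the third chain of type V, was the fibrillar gene with the largest difference at 10 min. Its libraries stood at 21.9, 16.8 and 19.3 CPM in sham, 50.7, 37.2 and 42.8 at 10 min, 14.0, 14.3 and 26.0 at 1 h and 20.3, 10.3 and 15.4 at 6 h. The 10 min libraries were all above the sham libraries, but the difference of 1.17 (SE 0.26, edgeR adjusted p = 0.194) was not called. Col5a3 then stood at 28.2, 39.8 and 42.7 CPM at 24 h and 103, 118 and 83.9 at 72 h, and rose against sham by 0.93 and 2.39 on the log2 scale at these times.

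Col11a1, a minor fibrillar chain best known from cartilage, was close to absent before 72 h. Its counts were 0, 1 and 1 in the sham libraries, 0, 1 and 0 at 10 min, 3, 2 and 1 at 1 h, 0, 0 and 3 at 6 h, 3, 4 and 0 at 24 h and 386, 911 and 1016 at 72 h. Col24a1, another minor fibrillar chain, had 0, 3 and 4 counts in sham libraries, 0 in all 24 h libraries and 169, 169 and 192 at 72 h. Col11a1 reached the minimum of 20 counts only through the 72 h libraries, and both genes were tested only through them, so these values are a description. Markers of cartilage and bone cells were also higher at 72 h. The summed level of Sox9, Acan, Runx2, Comp and Chad was 4.93 to 5.86 CPM in sham and 34.3 to 45.1 CPM at 72 h. All 4 tested were called higher at that time, beside 34.2% of all genes. Before 72 h the courses differed, since Col11a1 and Col24a1 had at most 4 counts in any 6 h or 24 h library. Sox9 and Runx2 were already called higher at 6 h and 24 h, beside 16.3% and 23.7% of all genes. Comp was called lower at 24 h, beside 20.2% of all genes. Without the first 6 h library, Sox9 alone was called at 6 h. The part of these cells in the result was not tested. Col2a1, the main collagen of cartilage, stayed near 0, with 1, 0 and 0 counts in sham libraries and 5, 13 and 5 at 72 h. Col27a1, a fibrillar chain of developing cartilage, fell by 0.62 at 6 h and rose by 0.81 and 2.23 at 24 h and 72 h, and its 6 h call was lost in 4 alternative fits. Col11a2 was not called against sham at any time.

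The promoters of 3 fibrillar genes are shown because these genes had different courses: Col3a1 fell at 6 h and then rose, Col5a1 had the largest called fall of its class at 6 h, and Col11a1 came from near 0. Each is the 250 bases before the RefSeq transcription start (GRCm38.p6, plus strand, 5′ to 3′). They were searched on both strands for 4 motifs: the TATA box as TATAAA, the box bound by the factor NF-Y as CCAAT, the core of the Sp1 site as GGGCGG and the AP-1 site as TGANTCA. Matches are in capitals, also where the motif is on the other strand, and no match overlapped another.
Col3a1, chr1:45311288-45311537: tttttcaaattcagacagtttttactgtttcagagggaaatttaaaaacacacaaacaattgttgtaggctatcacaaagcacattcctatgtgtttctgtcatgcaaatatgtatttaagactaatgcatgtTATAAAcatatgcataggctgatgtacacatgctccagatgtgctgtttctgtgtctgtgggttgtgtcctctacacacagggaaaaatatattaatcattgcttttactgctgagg
Col5a1, chr2:27886175-27886424: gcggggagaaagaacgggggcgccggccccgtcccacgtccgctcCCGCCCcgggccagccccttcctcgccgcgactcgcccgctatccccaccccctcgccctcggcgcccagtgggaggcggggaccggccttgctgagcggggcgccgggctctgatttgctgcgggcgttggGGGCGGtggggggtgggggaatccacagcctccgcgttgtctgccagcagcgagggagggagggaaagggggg
Col11a1, chr3:114030290-114030539: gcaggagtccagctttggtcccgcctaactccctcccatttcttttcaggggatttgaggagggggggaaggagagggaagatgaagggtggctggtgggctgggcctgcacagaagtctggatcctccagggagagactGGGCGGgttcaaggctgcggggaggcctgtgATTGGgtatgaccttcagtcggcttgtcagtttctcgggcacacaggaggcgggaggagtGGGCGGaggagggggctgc

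Col3a1 held TATAAA at bases -117 to -112 before the start and no other of these motifs, and its window was the poorest of the 3 in G and C, at 35.2%. Col5a1 held GGGCGG at -205 to -200, read on the other strand, and at -73 to -68, with 76.4% G and C. Col11a1 held GGGCGG at -110 to -105 and -19 to -14 and CCAAT at -79 to -75, read on the other strand. Of 32851 promoter windows in the RefSeq table, 12.4% held TATAAA, 33.8% CCAAT, 32.7% GGGCGG and 6.75% TGANTCA, and of the 32 members with an entry, 4, 12, 21 and 1 did. A match describes the letters of the window and not a bound site.

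**Figure D3:**
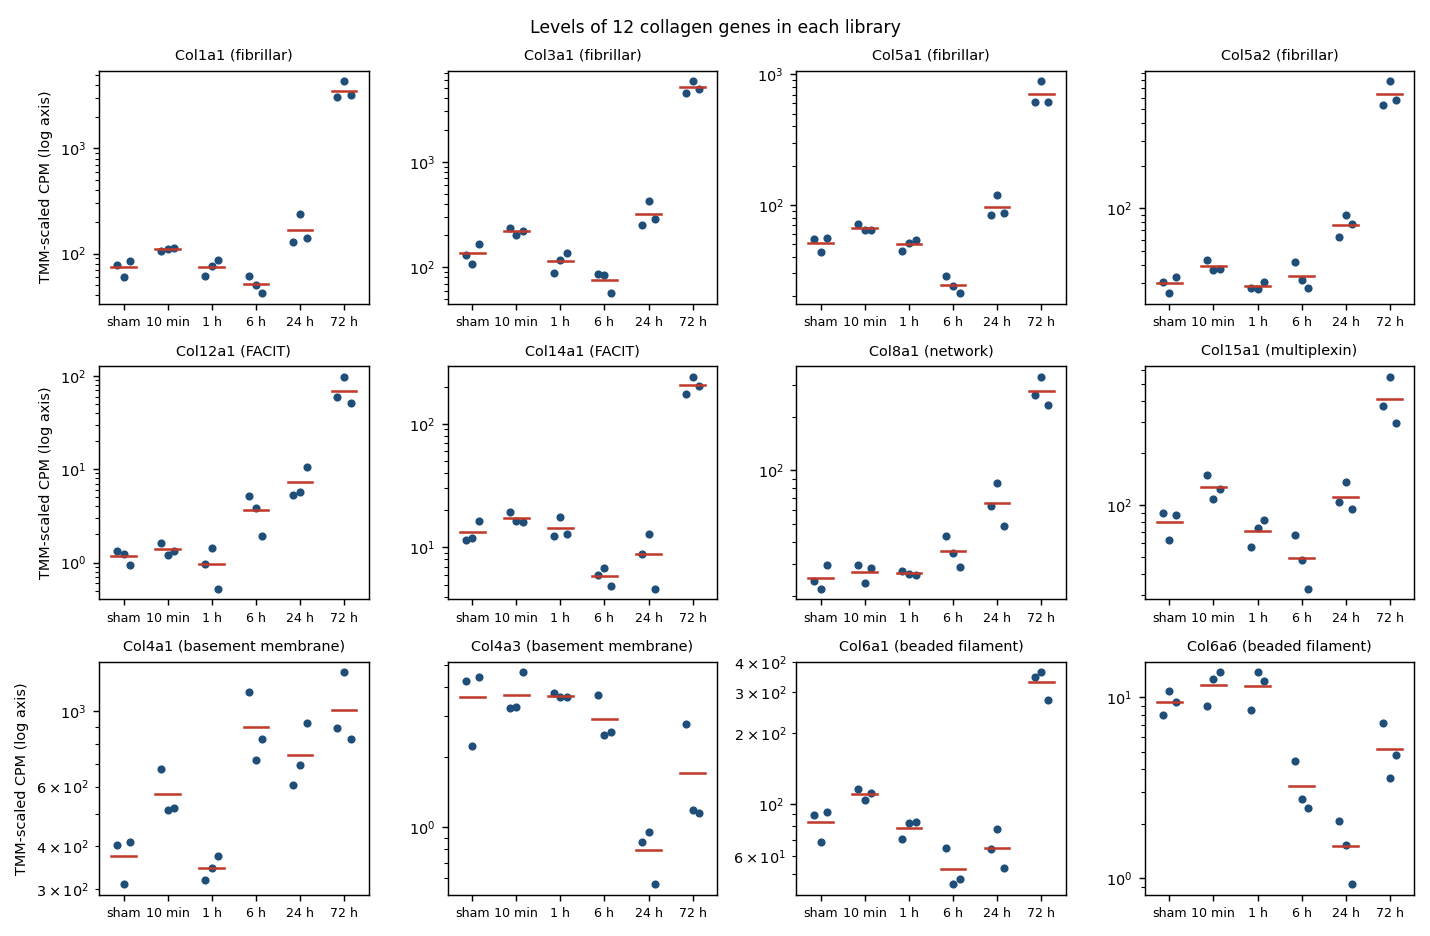
TMM-scaled CPM (log axis) of 12 collagen genes in the 18 libraries (points, 3 per group) with the group mean (line). Col1a1, Col3a1 and Col5a1 dip at 6 h and stand highest at 72 h, Col4a1 is high from 6 h on, and Col6a6 is lowest at 24 h.

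The FACIT genes, whose products lie on the surface of fibrils, differed from one another. Of 7 tested, 1 rose and 1 fell at 6 h, 2 rose and 1 fell at 24 h, and 4 rose and 0 fell at 72 h, with medians of -0.31, -0.54 and 3.56. The shares called, 28.6, 42.9 and 57.1%, stand beside 28.4%, 43.8% and 66.4% of all genes at the 3 times. Col9a2, which was tested only through the 72 h libraries, is among the 4. The other 6 had 3 higher and a median of 1.98 at 72 h. Col12a1 (chr9:79598991-79718831), found on fibrils of tissue under load, stood at 1.31, 1.24 and 0.933 CPM in sham libraries, 1.62, 1.22 and 1.34 at 10 min, 0.966, 1.42 and 0.525 at 1 h, 5.19, 3.88 and 1.92 at 6 h, 5.35, 5.73 and 10.6 at 24 h and 59.5, 98.0 and 51.6 at 72 h. From 6 h on every library was above every sham library. Its log2 fold change was 1.65 (SE 0.44, edgeR adjusted p = 0.0113) at 6 h, 2.62 (SE 0.41, edgeR adjusted p = 0.000169) at 24 h and 5.91 (SE 0.41, edgeR adjusted p = 6.92e-09) at 72 h. Without the first 6 h library, which had the highest 6 h level and the atrial genes, the 6 h change was 1.33 and was no longer called. Col14a1 (chr15:55307750-55520803), a FACIT of mature, evenly spaced fibrils, fell at 6 h. It stood at 11.6, 12.0 and 16.3 CPM in sham libraries, 19.3, 16.3 and 16.2 at 10 min, 12.3, 17.6 and 12.8 at 1 h, 5.96, 6.79 and 4.85 at 6 h, 8.80, 12.9 and 4.64 at 24 h and 173, 240.0 and 203 at 72 h. All 6 h libraries were below sham (-1.18, SE 0.28, edgeR adjusted p = 0.00635), the 24 h libraries overlapped with sham, and at 72 h it rose by 3.95.

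Of the other FACIT genes, Col16a1 rose by 0.71 at 24 h and 3.56 at 72 h. Col9a2, a chain of the cartilage collagen type IX tested only through the 72 h libraries, differed from sham at 72 h by 3.56. Col22a1, a collagen of muscle and tendon junctions, stood at 0.607, 1.04 and 0.755 CPM in sham libraries, 0.311, 0.924 and 0.614 at 10 min, 0.531, 0.948 and 1.22 at 1 h, 0.775, 0.431 and 0.746 at 6 h, 0.173, 0.283 and 0.258 at 24 h and 0.505, 0.487 and 0.255 at 72 h. It fell by 1.71 at 24 h with no overlap, at fewer than 10 counts in each 24 h library. Col9a3 and Col20a1 were not called against sham at any time.

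Type VIII collagen, the network class, forms hexagonal sheets around vessels. Both of its genes rose at 72 h, beside 34.2% of all genes called higher at that time. Col8a1 stood at 24.2, 21.9 and 29.5 CPM in sham libraries, 29.8, 23.5 and 28.5 at 10 min, 27.3, 26.5 and 25.9 at 1 h, 43.0, 34.4 and 28.9 at 6 h, 63.4, 84.9 and 48.9 at 24 h and 265, 334 and 233 at 72 h. Its 24 h and 72 h libraries were all above sham, with log2 fold changes of 1.38 (SE 0.19, edgeR adjusted p = 3.87e-05) and 3.46 (SE 0.20, edgeR adjusted p = 3.56e-10). Col8a2 stood at 0.404, 0.259 and 0.666 CPM in sham libraries, 0.560, 0.294 and 0.447 at 10 min, 0.241, 0.474 and 0.933 at 1 h, 0.179, 0.191 and 0.0533 at 6 h, 0.475, 0.354 and 0.103 at 24 h and 13.7, 15.3 and 16.3 at 72 h, a change of 5.05 (SE 0.37, edgeR adjusted p = 2.18e-09) at 72 h after overlap with sham at 24 h.

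The multiplexins lie between basement membranes and the tissue around them, and the end fragment of the Col18a1 product is endostatin. Col15a1 stood at 90.2, 62.2 and 87.5 CPM in sham libraries, 148, 108 and 123 at 10 min, 56.8, 73.8 and 81.5 at 1 h, 66.6, 47.7 and 32.7 at 6 h, 104, 136 and 94.2 at 24 h and 375, 552 and 297 at 72 h, and rose at 72 h by 2.35. Col18a1 stood at 15.6, 14.9 and 17.4 CPM in sham libraries, 19.1, 18.9 and 18.1 at 10 min, 12.8, 16.2 and 15.6 at 1 h, 28.2, 18.6 and 23.0 at 6 h, 32.5, 29.6 and 53.9 at 24 h and 93.7, 157 and 113 at 72 h. It rose by 1.27 at 24 h and 2.92 at 72 h, and at 6 h all its libraries were above sham without a call (0.54, SE 0.22, edgeR adjusted p = 0.0791).

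Col7a1 encodes the anchoring fibril collagen, which ties basement membranes to the tissue below. It stood at 1.06, 1.14 and 1.02 CPM in sham libraries, 0.560, 0.588 and 0.558 at 10 min, 1.5, 1.30 and 1.52 at 1 h, 0.656, 0.957 and 1.07 at 6 h, 0.95, 1.13 and 1.03 at 24 h and 3.85, 5.82 and 5.50 at 72 h. The 10 min libraries were the lowest and the 72 h libraries the highest. Against sham it was called at 72 h alone (2.23, SE 0.22, edgeR adjusted p = 6.08e-08), and the 1 h libraries were called above the 10 min libraries (1.33, SE 0.26, edgeR adjusted p = 0.0283). That early call was lost in 8 alternative fits, 6 of which leave out 1 of the 10 min or 1 h libraries, and at these levels it rests on few counts.

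The type VI genes, whose products form beaded filaments close to cell surfaces, showed 3 different courses. Of 5 tested, 3 fell at 6 h, 1 rose and 1 fell at 24 h, and 4 rose and 1 fell at 72 h, with medians of -0.67, -0.36 and 1.98, and Col6a5 is among the 4 through the 72 h libraries alone. The shares called, 60.0, 40.0 and 100%, stand beside 28.4%, 43.8% and 66.4% of all genes at the 3 times. Col6a1 and Col6a2, neighbours on chromosome 10 whose chains join in 1 helix with that of Col6a3, had the same calls against sham. The ratio of Col6a1 to Col6a2 per kb was 1.80 to 1.86 in the sham libraries and 1.98 to 2.05 at 6 h. It was 1.48 to 1.59 at 24 h and 1.77 to 1.91 at 72 h. Col6a1 stood at 89.6, 68.9 and 91.9 CPM in sham libraries, 115, 103 and 111 at 10 min, 70.7, 82.7 and 83.8 at 1 h, 64.8, 45.4 and 47.6 at 6 h, 63.9, 77.8 and 53.4 at 24 h and 347, 363 and 276 at 72 h. It fell at 6 h (-0.67, SE 0.16, edgeR adjusted p = 0.00417), was not called at 24 h and rose at 72 h (1.98, SE 0.16, edgeR adjusted p = 6.44e-09), with no overlap with sham at 6 h or 72 h. Col6a2 stood at 91.8, 72.9 and 96.7 CPM in sham libraries, 131, 109 and 114 at 10 min, 70.4, 83.5 and 92.5 at 1 h, 61.1, 42.2 and 45.8 at 6 h, 76.1, 95.8 and 68.6 at 24 h and 374, 362 and 293 at 72 h, with called changes of -0.81 at 6 h and 1.98 at 72 h.

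Col6a3 was not called at 6 h. It stood at 28, 21.8 and 29.8 CPM in sham libraries, 47.5, 39.4 and 37.0 at 10 min, 23.2, 24.1 and 24.8 at 1 h, 31.8, 24.6 and 20.9 at 6 h, 69.5, 82.1 and 60.5 at 24 h and 170.1, 273 and 160.1 at 72 h. The difference was -0.04 (SE 0.20, edgeR adjusted p = 0.896) at 6 h, and it rose by 1.41 at 24 h and 2.92 at 72 h. The ratio of Col6a3 to Col6a1 per kb was 0.114, 0.116 and 0.119 in sham libraries, 0.151, 0.140 and 0.122 at 10 min, 0.120, 0.107 and 0.109 at 1 h, 0.180, 0.198 and 0.161 at 6 h, 0.399, 0.386 and 0.415 at 24 h and 0.179, 0.275 and 0.212 at 72 h. Every library at 10 min and from 6 h on lay above every sham library, and the 24 h libraries were the highest. Col6a6 (chr9:105687809-105828160), a chain that can take the place of Col6a3 in the helix, fell while Col6a3 rose. It stood at 7.94, 10.8 and 9.42 CPM in sham libraries, 8.90, 12.6 and 13.7 at 10 min, 8.45, 13.7 and 12.3 at 1 h, 4.47, 2.73 and 2.45 at 6 h, 2.07, 1.52 and 0.928 at 24 h and 7.19, 3.59 and 4.80 at 72 h. Every 6 h, 24 h and 72 h library was below every sham library, with log2 fold changes of -1.56 (SE 0.30, edgeR adjusted p = 0.00111), -2.62 (SE 0.32, edgeR adjusted p = 1.17e-05) and -0.85 (SE 0.28, edgeR adjusted p = 0.0125). The call at 72 h was lost with library size scaling, at -0.27, and without the second sham or the second 72 h library.

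The low-count relatives on the same stretch of chromosome 9 were seen mainly at 72 h. Col6a5 had 0, 1 and 2 counts in the sham libraries, 1, 1 and 4 at 10 min, 3, 0 and 0 at 1 h, 0, 1 and 2 at 6 h, 2, 0 and 0 at 24 h and 73, 22 and 23 at 72 h. Col6a4 had 0, 1 and 0 counts in the sham libraries and 7, 10 and 9 at 72 h. Both met the minimum of 20 counts only through the 72 h libraries, so their rise was a condition of being members. Also at 72 h their counts were far under those of Col6a1 to Col6a3.

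**Figure D4:**
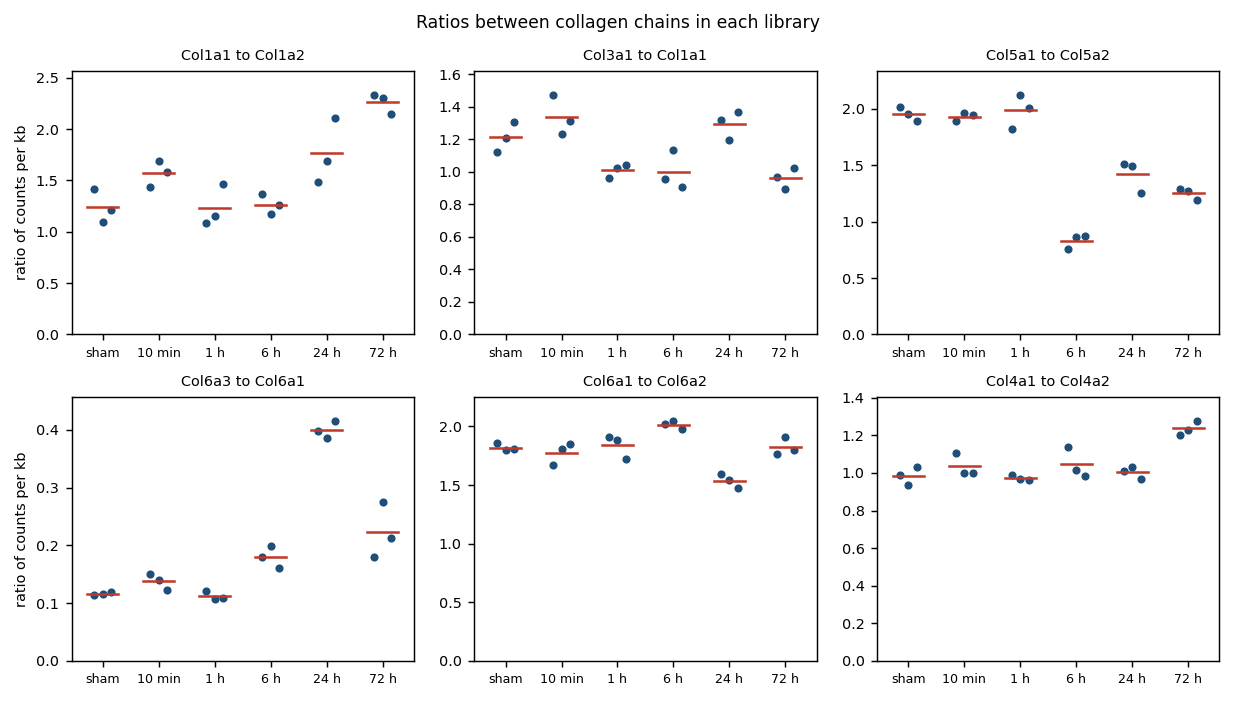
Ratio of counts per kb between pairs of collagen chains in each of the 18 libraries (points, 3 per group) with the group mean (line), on axes that start at 0. Col5a1 to Col5a2 is lowest at 6 h, Col6a3 to Col6a1 is highest at 24 h, and Col1a1 to Col1a2 and Col4a1 to Col4a2 are highest at 72 h.

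The basement membrane genes split by chain. Of 6 tested, 2 rose and 2 fell at 6 h, 3 rose and 3 fell at 24 h, and 3 rose and 2 fell at 72 h, with medians of -0.33, -0.25 and 0.68. The shares called, 66.7, 100 and 83.3%, stand beside 28.4%, 43.8% and 66.4% of all genes at the 3 times. Col4a1 (chr8:11198423-11312826) and Col4a2 (chr8:11312805-11449287), whose chains make the common form of type IV, were called higher from 6 h on. Of the 6 genes, 2 rose and 1 fell at 6 h without the first 6 h library. Col4a1 stood at 405, 309.9 and 414 CPM in sham libraries, 675, 513 and 519 at 10 min, 318, 346 and 376 at 1 h, 1137, 719.6 and 831 at 6 h, 608, 696 and 924 at 24 h and 892, 1302 and 829 at 72 h. All libraries from 6 h on were above all sham libraries, and the 6 h, 24 h and 72 h libraries overlapped with each other. The log2 fold change was 1.25 (SE 0.20, edgeR adjusted p = 0.000266) at 6 h, 0.98 (SE 0.20, edgeR adjusted p = 0.000966) at 24 h and 1.42 (SE 0.20, edgeR adjusted p = 8.11e-06) at 72 h. Col4a2 stood at 364, 294 and 355 CPM in sham libraries, 541, 454 and 460.2 at 10 min, 286, 317 and 346 at 1 h, 886, 627 and 748 at 6 h, 534, 598 and 846 at 24 h and 656, 938 and 576 at 72 h, with changes of 1.16, 0.96 and 1.1, all called.

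The 6 h rise of this pair did not need the first 6 h library, since without it the changes were 1.04 for Col4a1 and 1.02 for Col4a2, both still called. The summed level of 5 endothelial markers was 1095 to 1217 CPM in sham libraries, 1116 to 1550.2 at 6 h, 814 to 969 at 24 h and 655 to 877 at 72 h, with 1 of 5 higher (Pecam1, 0.68) and 1 lower (Emcn, -0.63) at 6 h and 0 higher and 4 lower at 72 h. Pericyte and smooth muscle markers gave 0 calls of 5 at 6 h and 0 higher and 4 lower at 72 h. Of all genes, 28.4% were called at 6 h, and 34.2% were called higher and 32.2% lower at 72 h. So the rise of Col4a1 and Col4a2 at 72 h stood beside lower TMM-scaled levels of most markers of vessel cells. These lower levels are relative to the other genes, whose median at 72 h was 0.61 with library size scaling and 0.03 with TMM. The part of cell makeup in the rise of Col4a1 and Col4a2 was not tested. Set against the scar collagen, Col4a1 to Col1a1 per kb was 4.46 ± 0.154 in sham libraries, 15.5 ± 2.47 at 6 h, 4.19 ± 1.64 at 24 h and 0.248 ± 0.0200 at 72 h.

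Col4a3 and Col4a4, chains of the tissue-restricted form of type IV known from kidney, fell. Col4a3 (chr1:82586921-82722059) stood at 4.25, 2.23 and 4.44 CPM in sham libraries, 3.24, 3.28 and 4.64 at 10 min, 3.77, 3.61 and 3.61 at 1 h, 3.70, 2.49 and 2.56 at 6 h, 0.863, 0.955 and 0.567 at 24 h and 2.78, 1.19 and 1.15 at 72 h. All 24 h libraries were below all sham libraries, and at 6 h and 72 h the groups overlapped. The log2 fold change was -2.17 (SE 0.36, edgeR adjusted p = 0.000138) at 24 h and -1.1 (SE 0.32, edgeR adjusted p = 0.00566) at 72 h, and a gene model on the opposite strand shares 5.65% of its exon bases, which the counting may not separate. Col4a4 (chr1:82448423-82586849), whose values are given in full after they were seen, stood at 10.7, 8.09 and 8.66 CPM in sham libraries, 11, 9.45 and 14.5 at 10 min, 8.98, 9.95 and 10.3 at 1 h, 5.90, 5.84 and 6.98 at 6 h, 3.75, 2.94 and 1.55 at 24 h and 5.99, 4.54 and 4.80 at 72 h, and fell by 1.72 at 24 h and 0.84 at 72 h. With library size scaling the 72 h values were -0.53 for Col4a3 and -0.26 for Col4a4, and neither was called.

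The type IV genes lie in 3 pairs that start head to head, that is, from neighbouring starts on opposite strands. In GENCODE M21, Col4a1 and Col4a2 overlap by 22 bases on chromosome 8, Col4a4 and Col4a3 start 71 bases apart on chromosome 1, and Col4a6 and Col4a5 start 1308 bases apart on chromosome X. The 71 bases between Col4a4 and Col4a3 are shown because both genes fell at 24 h, while Col4a1 and Col4a2 rose. They are given 5′ to 3′ on the minus strand, in the direction of Col4a4 (GRCm38.p6, RefSeq), and none of the motifs searched was in them.
Col4a4 and Col4a3, chr1:82586850-82586920: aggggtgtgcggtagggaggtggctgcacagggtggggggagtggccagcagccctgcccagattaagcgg

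The pair on chromosome X had different calls at 72 h. Col4a5, which joins Col4a3 and Col4a4 in the restricted form, had small changes of -0.34 at 6 h and 0.30 at 24 h, each lost in 8 alternative fits, and was not called at 72 h. Col4a6 stood between 0.674 and 1.47 CPM in sham libraries, fell by 1.14 at 6 h and 0.81 at 24 h, and rose by 1.22 at 72 h to between 2.0 and 3.20 CPM. Its 6 h call was lost in 3 alternative fits and its 24 h call in 18.

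The transmembrane collagens, which stay anchored in the cell membrane, were low throughout. Of 2 tested, both fell at 24 h, beside 20.2% of all genes called lower at that time. Col13a1 stood at 1.57, 3.06 and 2.0 CPM in sham libraries, 3.36, 2.48 and 3.57 at 10 min, 3.53, 2.84 and 2.51 at 1 h, 3.16, 2.63 and 3.52 at 6 h, 1.55, 0.990 and 0.722 at 24 h and 1.80, 1.0 and 1.05 at 72 h, with log2 fold changes of -1.0 (SE 0.32, edgeR adjusted p = 0.0161) and -0.78 (SE 0.31, edgeR adjusted p = 0.032). Each of these calls was lost in 4 alternative fits, the second also with library size scaling, at -0.20. Col23a1 stood at 1.57, 2.18 and 2.62 CPM in sham libraries, 2.43, 2.39 and 1.84 at 10 min, 2.51, 2.43 and 1.69 at 1 h, 2.15, 1.72 and 1.81 at 6 h, 0.993, 1.03 and 1.03 at 24 h and 2.52, 1.46 and 2.20 at 72 h, and was called at 24 h alone (-1.06, SE 0.26, edgeR adjusted p = 0.00353). Col17a1, a hemidesmosome collagen of epithelia, had 1, 0 and 0 counts in sham libraries and 1, 10 and 8 at 6 h. The pooled ratio was 20.7, with an exact 95% interval of 3.29 to 861, which covers counting error only. Over the same sham count the ratios were 5.33 at 10 min, 10.1 at 1 h, 16.5 at 24 h and 12.2 at 72 h. Their intervals overlapped with that at 6 h. Col25a1, a transmembrane collagen of nerve cells, had 4 to 15 counts in every library.

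Col26a1 and Col28a1 belong to none of the classes. Col26a1 stood at 0.657, 0.363 and 0.267 CPM in sham libraries, 0.311, 0.420 and 0.447 at 10 min, 0.338, 0.415 and 0.583 at 1 h, 0.358, 0.383 and 0.213 at 6 h, 0.691, 0.495 and 0.412 at 24 h and 2.37, 1.80 and 2.48 at 72 h. At 72 h it rose by 2.37 (SE 0.33, edgeR adjusted p = 5.45e-06). Col28a1, a collagen of peripheral nerve sheaths, stood at 2.12, 2.64 and 1.33 CPM in sham libraries, 1.12, 1.93 and 1.51 at 10 min, 3.04, 3.61 and 2.04 at 1 h, 4.23, 2.97 and 5.06 at 6 h, 2.03, 1.20 and 1.75 at 24 h and 2.40, 4.45 and 3.34 at 72 h. Its rise at 6 h was 1.01 (SE 0.31, edgeR adjusted p = 0.0224) with no overlap and that at 72 h was 0.75, and each call was lost in 4 alternative fits.

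**Figure D5:**
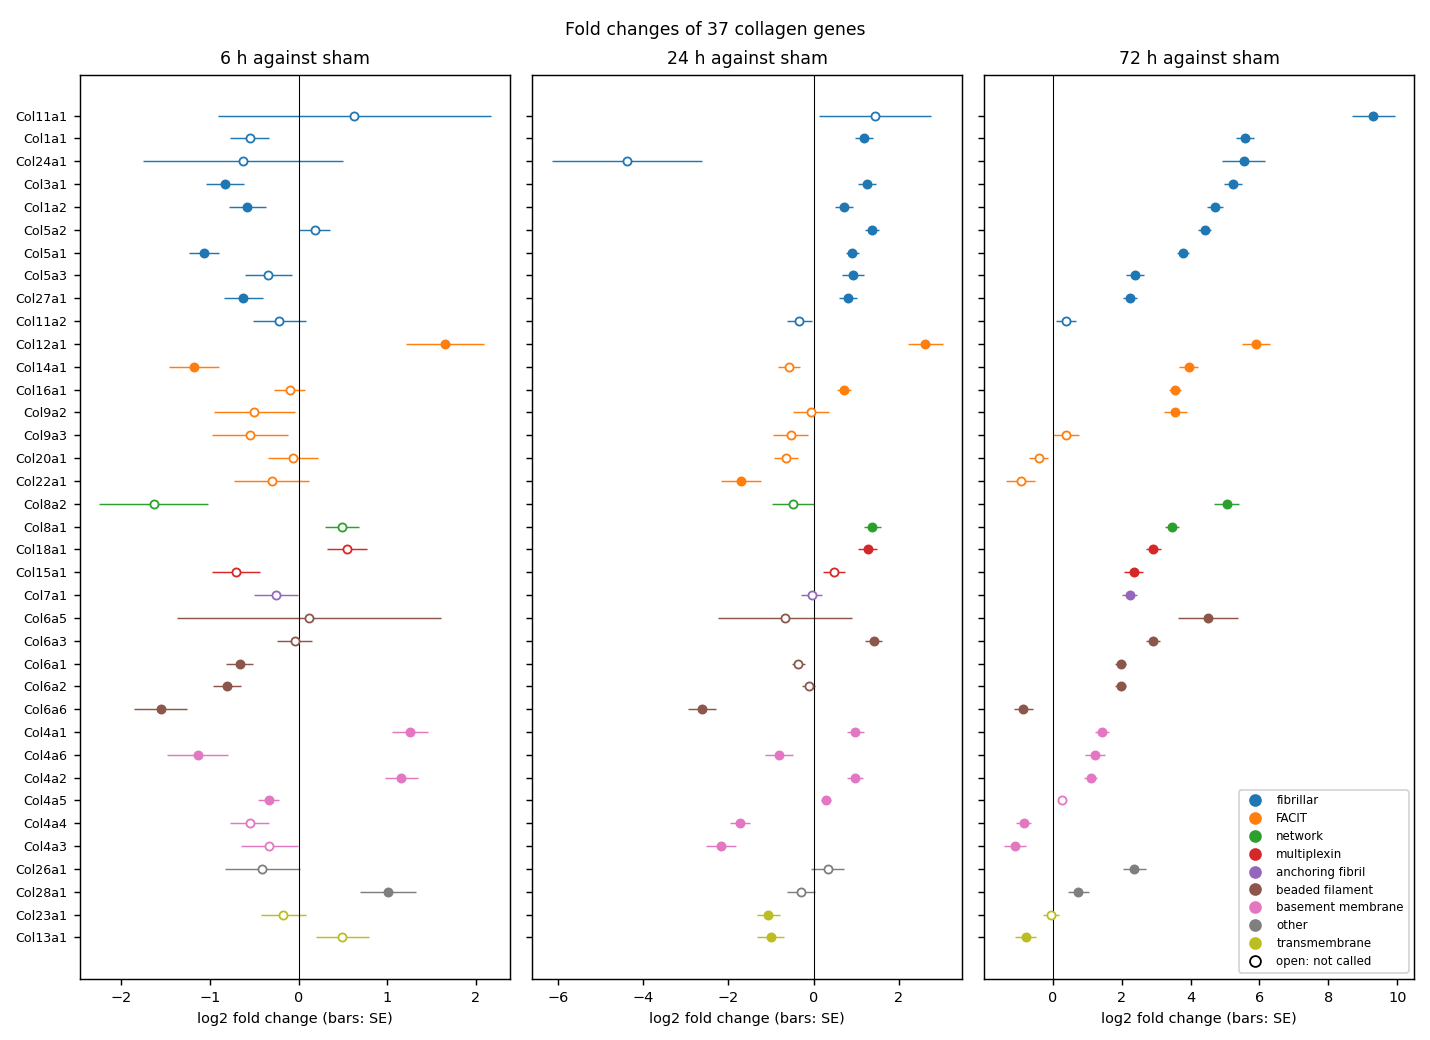
Log2 fold change against sham of the 37 tested collagen genes at 6 h, 24 h and 72 h, with bars for the SE of the edgeR fit, filled points for called genes and colours for the class. At 6 h called fibrillar genes lie left of 0 and Col4a1, Col4a2, Col12a1 and Col28a1 right of it, and at 72 h 27 called genes lie right of 0.

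The first hour held differences that did not pass the test across all genes. At 10 min 13 of 37 members had an unadjusted p under 0.05 against sham, beside 1144 of 16311 genes, and at 1 h 0 of 37 had, beside 899 of 16311. Among the 13 were Col4a1 and Col3a1, whose 10 min libraries were all above all sham and all 1 h libraries. DESeq2 called 1 member at 10 min (Col5a3, log2 fold change 1.18, adjusted p = 0.00253), beside 0.368% of all genes it tested. An edgeR fit to the 6 libraries alone called 8, all higher, beside 2.48% of all genes in that fit and 1.33% called higher. At 1 h DESeq2 called 0.

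Between consecutive times, the most members were called from 24 h to 72 h. From 10 min to 1 h 1 member rose (Col7a1), beside 0.307% of all genes called and 0.251% called higher. From 1 h to 6 h 14 of 37 were called, 4 higher and 10 lower, beside 24.5% of all genes (14.5% higher and 10.0% lower). From 6 h to 24 h 21 were called, 14 higher and 7 lower, beside 27.8% (14.2% higher and 13.7% lower), and with library size scaling they were 18 higher and 4 lower, beside 37.1% and 5.08% of all genes. From 24 h to 72 h 30 were called, 30 higher and 0 lower, beside 50.5% (24.4% higher and 26.1% lower). Among the 33 members tested without need of the 72 h libraries, 26 rose and 0 fell in this last step, with a median log2 change of 1.77. The genes of types I and III rose in both of the last steps, with 4.39 for Col1a1, 4.0 for Col1a2 and 3.98 for Col3a1 from 24 h to 72 h, after 1.73, 1.29 and 2.09 from 6 h to 24 h. Col4a1 and Col4a2 were called neither from 6 h to 24 h (-0.27 and -0.19) nor from 24 h to 72 h (0.44 and 0.13). Col6a6, Col4a3 and Col4a4 rose again in the last step, by 1.77, 1.07 and 0.88. The call of Col4a3 was lost in 3 alternative fits, among them those without the third 24 h or the first 72 h library.

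The genes that process collagen chains rose mostly from 24 h on. Of 18 genes of modification and folding, 2 rose and 1 fell at 6 h, 12 rose and 1 fell at 24 h, and 14 rose and 1 fell at 72 h, with medians of -0.09, 0.53 and 1.48. The shares called in this list were 16.7, 72.2 and 83.3%, beside 28.4%, 43.8% and 66.4% of all genes, so that at 6 h it was below the share of all genes. P4ha3, a prolyl 4-hydroxylase subunit, had the largest change of this list at 72 h (8.44). Its sham libraries stood near 0, between 0.0444 and 0.104 CPM. Serpinh1, the collagen chaperone HSP47, rose by 0.92 at 24 h and 2.14 at 72 h. Colgalt2, which adds galactose to hydroxylysine, was the gene that fell, by 1.16, 1.14 and 1.26 at 6 h, 24 h and 72 h. Of 6 export genes, 1 rose and 1 fell at 6 h, 3 and 1 at 24 h, and 4 and 1 at 72 h, or 33.3, 66.7 and 83.3%. Creb3l1, a transcription factor of the secretory pathway, was higher at each of these times (0.93, 0.86 and 2.74), and the gene that fell was Mia2. Without the first 6 h library, modification and folding had 1 higher (Plod3) and 1 lower, export 0 higher and 1 lower, and the 6 h call of Creb3l1 was lost.

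Outside the cell, genes of cross-linking were called higher from 6 h on and genes of propeptide removal from 24 h on. Of 8 genes for propeptide removal, 0 rose and 2 fell at 6 h, 3 rose and 2 fell at 24 h, and 5 rose and 2 fell at 72 h, which is 25, 62.5 and 87.5% called beside 28.4%, 43.8% and 66.4% of all genes. Adamts2, which trims the procollagens of types I to III, rose by 0.89 at 24 h and 3.09 at 72 h, and Tll2, a tolloid-like protease, fell by 1.92 at 6 h and 3.32 at 72 h. Of 5 lysyl oxidase genes, 2 rose at 6 h (Lox, 2.87, and Loxl4, 1.75), all 5 rose at 24 h and all 5 at 72 h, when Lox stood 5.85 above sham, and the shares called were 40.0, 100 and 100%. Both lists had the same counts at 6 h without the first 6 h library. Lox was thus called higher at 6 h, when Col1a2, Col3a1 and Col5a1 were called lower.

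Enzymes that cleave collagen rose early in part. Of 6, 3 rose and 1 fell at 6 h, 4 rose and 1 fell at 24 h, and 6 rose and 0 fell at 72 h, or 66.7, 83.3 and 100% called beside 28.4%, 43.8% and 66.4% of all genes. Those that rose at 6 h were Mmp8 (9.19), Mmp9 (3.49) and Mmp14 (1.71), and the one that fell was Mmp2 (-0.29). The sham libraries of Mmp8 stood near 0, between 0 and 0.0519 CPM. Mmp8 and Mmp9 are carried by neutrophils, whose 3 markers summed to 2.04 to 3.11 CPM in sham libraries and 83.2 to 629 CPM at 6 h, all 3 called higher, and the part of these cells was not tested. Without the first 6 h library, Mmp8 and Mmp14 were still called and Mmp9 was not. Of 9 collagen receptor genes tested, 2 rose and 3 fell at 6 h, 4 rose and 1 fell at 24 h, and 7 rose and 1 fell at 72 h, or 55.6, 55.6 and 88.9% called. Of these, 2 rose and 2 fell at 6 h without the first 6 h library. Itga11, an integrin subunit of fibroblasts that binds fibrillar collagen, fell by 0.99 at 6 h and rose by 2.30 at 72 h. Of 5 inducers, 2 rose and 1 fell at 6 h, 3 rose at 24 h and 5 rose at 72 h, or 60.0, 60.0 and 100% called, with the same counts at 6 h without the first 6 h library. Ccn2 (connective tissue growth factor) rose by 3.76 (SE 0.34) at 6 h and by 2.91 (SE 0.33) at 72 h. These times were not tested against each other. Tgfb3 fell by 0.62 at 6 h and rose by 2.10 at 72 h. None of these lists had a call at 10 min or 1 h.

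Cell type markers changed too, in directions that differed between the lists. Their counts stand beside 28.4%, 43.8% and 66.4% of all genes called at 6 h, 24 h and 72 h. At 6 h 1 of 5 myofibroblast markers rose, at 24 h 4 did and at 72 h all 5. Their summed level was 165 to 224 CPM in sham libraries, 175 to 321 at 6 h, 552 to 1041 at 24 h and 3458 to 4409 at 72 h. Postn, a matrix protein of activated fibroblasts, rose by 1.94 at 24 h and 6.21 at 72 h, and Cthrc1 by 3.82 and 9.86. The sham libraries of Cthrc1 stood near 0, between 0.0519 and 0.222 CPM. Of 6 fibroblast markers, 1 rose and 1 fell at 6 h, 1 rose and 4 fell at 24 h, and 5 rose and 1 fell at 72 h, and their summed level was 1952 to 2160.5 CPM in sham, 935 to 1280.3 at 24 h and 1341 to 1868 at 72 h, much of it from Gsn, which fell. Pdgfra, a fibroblast receptor, was higher at 6 h (0.38) when Col1a2, Col3a1 and Col5a1 were lower, but without the first 6 h library it was not called, and 0 fibroblast markers were higher and 1 (Lum) lower. Of 5 cardiomyocyte markers 0 were called at 6 h, 3 fell at 24 h and 5 fell at 72 h, with summed levels of 49947 to 54344 CPM in sham and 13423 to 17546 CPM at 72 h. Of 4 macrophage markers, 1 rose and 1 fell at 6 h, and all 4 rose at 24 h and at 72 h, and without the first 6 h library 1 rose and 2 fell at 6 h. Epicardial markers gave 1 call of 4 at 6 h (Wt1, 0.99) and 2 at 72 h, all higher, the first of them lost without the first 6 h library, and adipocyte markers had 1 gene tested and no call. The part of these shifts in the collagen levels was not tested.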

How the data were processed

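Per the submitters' processing notes, reads were trimmed with cutadapt 1.18, aligned with HISAT2 2.1.0 and counted with featureCounts, with mm10 named as the build. The settings, the gene annotation and any use of strand are not given in the sources used here, so reads of overlapping genes may not be separated. The deposited values used are raw counts per Ensembl gene for each library. The authors also deposited FPKM, which served only to recover gene lengths, because the values given as FPKM for 2 of the 6 h libraries are swapped between them. Lengths equalled the exon length in GENCODE M21 for 27781 of 30244 genes, and symbols and positions come from M21 (30512 IDs matched, 71 did not).

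Differences were tested with edgeR 4.0.16 (R 4.3.3). filterByExpr removed 14272 genes, libraries were scaled by TMM, and a robust quasi-likelihood model with 1 mean per group was fitted to 16311 genes in all 18 libraries. Tests were two-sided, with Benjamini-Hochberg adjustment over all genes tested and a threshold of 0.05. The script was tested on simulated data. Libraries came from separate mice, and no 2 libraries of a group agreed within sampling noise. No batch or date is given in the labels used here. The members, classes, gene lists and tests were chosen with earlier results of these data known. Values in every library were given for types I, III, IV (first 2 chains), V and VI (first 3 chains), for the most abundant member of each class per kb, for the called members with the largest rise and fall of each class at 24 h and 72 h, and for members called at 10 min or 1 h. Col4a4 and the members with few counts, whose values per library are also given, were chosen after their values were seen. Alternatives were other scalings (RLE and library size), other filters, a replicate block, a fit to the compared libraries alone, leaving out each library, and DESeq2 1.42.0.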

Additional observations from a re-analysis of the deposited data

How the results depend on the processing

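The members chosen by the stated rule to be given in every library had 105 called results. These results were refitted under 2604 alternatives in all. Of the alternatives, 2490 kept direction and call, 114 lost the call in the same direction and 0 reversed. Calls of the other members are not in these counts, among them the 24 h call of Col4a6, which was lost in 18 alternative fits. The number of members called stayed within 1.5 times the main number except in the early comparisons. At 10 min against sham it was 8 in the fit to the 6 libraries compared and 1 with DESeq2, in place of 0. At 1 h against 10 min it was 0 with no filter, 0 where every library had to reach 10 counts, 11 in the fit to the 6 libraries and 4 with DESeq2, in place of 1, and 0 to 2 when 1 library was left out. With library size scaling the 1 call in that comparison was lower, not higher. Leaving out 1 library gave 10 to 18 members called at 6 h, 20 to 23 at 24 h and 28 to 32 at 72 h.

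Without mitochondrially encoded genes the collagen share of counts was 0.193% in sham libraries, 0.275% at 10 min, 0.180% at 1 h, 0.257% at 6 h, 0.383% at 24 h and 2.62% at 72 h. Per kb the share was 0.0404%, 0.0585%, 0.0380%, 0.0543%, 0.0860% and 0.725% from sham to 72 h. Without gene lengths the ratio of Col3a1 to Col1a1 was 1.81, 2.004, 1.51, 1.49, 1.94 and 1.44 from sham to 72 h, and that of Col1a1 to Col1a2 was 0.656, 0.830, 0.651, 0.667, 0.932 and 1.19. The level of each share and ratio differs between the measures because of how each is computed. In each version the collagen share was highest at 72 h.

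The replicate numbers do not pair the libraries: over 45 pairs of same-numbered libraries the correlation of deviations ran from -0.256 to 0.252, and 4 were over 0.1. With a replicate block the members called were 0 at 10 min, 0 at 1 h, 14 at 6 h, 21 at 24 h and 32 at 72 h against sham, and 1, 15, 21 and 31 between consecutive times. Members with under 20 counts in a group cannot show small differences at this depth.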
